A study of Mus musculus with 14 samples.

Results

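The chemosensory receptor genes of the mouse were examined for H3K4me1, the single methylation of lysine 4 of histone H3, in fibroblasts. All protein-coding genes of the GENCODE M21 annotation whose symbol begins with Olfr, Vmn1r, Vmn2r or Taar were taken, which gave 1481 of 21938 protein-coding genes. They were 1135 Olfr, 209 Vmn1r, 122 Vmn2r and 15 Taar genes. For each gene the promoter was the window of 1 kb on either side of the most upstream annotated transcription start site (TSS), and the gene body ran from that TSS to the annotated end. Both were overlaid with the deposited H3K4me1 sites, and an overlap of 1 bp counted.

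The ChIP-seq libraries came from NG3, an immortalised mouse embryonic fibroblast line (iMEF) that is a single clone. In these cells the endogenous Ash2l gene, which encodes a core subunit of the histone H3 lysine 4 methyltransferase complexes, was inactivated by Cre-ER removal of exon 4, and the cells lived on FKBP-HA2-ASH2L, a fusion protein that the compound dTAG-13 directs to degradation. The 6 conditions were a control without dTAG-13 and 0.5, 2, 4, 8 and 16 h with it, each in 2 replicates, which made 12 H3K4me1 libraries beside 2 inputs. All groups carried the fusion protein and lacked the endogenous gene, so no library represents unmodified fibroblasts. The list used here holds 160144 sites found over all these libraries, as start and end positions with no read count. A deposited list of sites that changed at each time point was not used here. No replicate, time point or depth is attached to a site of this list, so the values below describe where sites were found in the series as a whole and not a response to dTAG-13, and none has a replicate error. Shares carry a 95% Wilson interval, which covers the counting of genes only and treats neighbouring genes as independent, which they are not.

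Olfactory receptors (Olfr) are G protein-coupled receptors that detect odorants, and a mature olfactory neuron expresses a single allele of a single receptor gene. Vmn1r and Vmn2r encode the receptors of the vomeronasal organ, which detects pheromones, and Taar genes encode trace amine-associated receptors, most of which are olfactory receptors for volatile amines. The genes lie in large tandem arrays that are packed in repressive chromatin, and in the olfactory neuron the factors Lhx2, Ebf and Ldb1 act at enhancers within them. H3K4me1 marks enhancers and the flanks of active promoters.

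The labelled cell type was compared with marker genes at the level the table allows. Of 13 fibroblast genes, 11 had a site in the promoter, among them Col1a1, Col1a2, Vim, Pdgfra and Pdgfrb, and Col3a1 and Lum had none. Promoters of 4 of 5 genes listed for olfactory neurons, 3 of 3 epithelial genes (Cdh1, Epcam, Krt8), 1 of 2 blood genes and 1 of 2 endothelial genes also had a site, so presence of a site did not separate these lists. Over all protein-coding promoters the share was 63.9%. Expression was not part of the table.

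Selected sequences show the kinds of DNA involved, all read 5′ to 3′ on the strand of the receptor gene from the GRCm38.p6 assembly. The only receptor promoter with a CpG island was that of Vmn1r4, whose TSS lies 83 bp from that of Nt5c3, a nucleotidase gene that is transcribed away from it. The bases between both start sites are given with CpG dinucleotides in capitals, of which there are 9.
Vmn1r4 (chr6:56923933-56924014, plus strand): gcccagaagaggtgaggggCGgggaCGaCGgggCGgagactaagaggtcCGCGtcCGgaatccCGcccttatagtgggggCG
Beside it stand the 300 bases upstream of Olfr78, a receptor for short-chain fatty acids, and of Vmn2r116, a vomeronasal receptor for the male tear peptide ESP1, as examples of receptor promoters without a site. Capitals mark matches on either strand to TATAAA, which is the core word of the TATA box, to TAATTA, which is a core bound by homeodomain factors, to CCCNNGGG, which is a core bound by Ebf factors, and to TGANTCA, which is the AP-1 motif. A match at any position counted, so a match to TATAAA need not be a TATA box. Olfr78 had 4 matches, to TATAAA and, once, to the AP-1 motif, and Vmn2r116 had 0.
Olfr78 (chr7:102759472-102759771, minus strand): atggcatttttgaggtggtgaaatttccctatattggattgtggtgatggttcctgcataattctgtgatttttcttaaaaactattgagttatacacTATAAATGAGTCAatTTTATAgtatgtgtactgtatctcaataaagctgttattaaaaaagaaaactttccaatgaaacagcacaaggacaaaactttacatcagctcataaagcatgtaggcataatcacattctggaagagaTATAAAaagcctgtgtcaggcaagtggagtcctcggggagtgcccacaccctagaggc
Vmn2r116 (chr17:23384304-23384603, plus strand): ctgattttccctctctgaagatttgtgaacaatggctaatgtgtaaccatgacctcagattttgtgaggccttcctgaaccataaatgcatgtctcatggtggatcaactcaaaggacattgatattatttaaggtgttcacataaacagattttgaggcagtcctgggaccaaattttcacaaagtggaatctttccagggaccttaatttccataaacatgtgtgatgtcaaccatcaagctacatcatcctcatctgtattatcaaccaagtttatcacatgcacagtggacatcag
Sites that lay wholly upstream of a receptor TSS are shown by Olfr552, at -273 to -4 bp from the TSS, and by Olfr768, at -862 to -599 bp. Capitals mark TGANTCA, which occurred once in the Olfr552 site and not in the Olfr768 site.
Olfr552 (chr7:102597497-102597766, plus strand): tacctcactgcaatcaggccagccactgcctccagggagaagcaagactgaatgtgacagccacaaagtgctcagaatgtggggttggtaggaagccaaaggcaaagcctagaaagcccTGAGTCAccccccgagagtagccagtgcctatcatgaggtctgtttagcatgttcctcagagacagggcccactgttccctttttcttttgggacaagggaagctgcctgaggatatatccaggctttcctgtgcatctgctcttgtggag
Olfr768 (chr10:129099974-129100237, minus strand): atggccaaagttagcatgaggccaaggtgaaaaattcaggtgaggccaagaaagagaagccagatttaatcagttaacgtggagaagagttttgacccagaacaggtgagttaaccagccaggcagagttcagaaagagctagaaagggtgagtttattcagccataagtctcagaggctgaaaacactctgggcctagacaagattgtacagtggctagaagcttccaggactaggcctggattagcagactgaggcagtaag
Sites that lay wholly in coding sequence are shown by Olfr303 and Olfr677, with no match to TGANTCA.
Olfr303 (chr7:86394820-86395019, minus strand): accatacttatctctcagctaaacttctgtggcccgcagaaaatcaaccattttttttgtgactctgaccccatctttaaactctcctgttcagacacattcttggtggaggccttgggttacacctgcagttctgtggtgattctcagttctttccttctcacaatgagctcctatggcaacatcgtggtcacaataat
Olfr677 (chr7:105056705-105056910, plus strand): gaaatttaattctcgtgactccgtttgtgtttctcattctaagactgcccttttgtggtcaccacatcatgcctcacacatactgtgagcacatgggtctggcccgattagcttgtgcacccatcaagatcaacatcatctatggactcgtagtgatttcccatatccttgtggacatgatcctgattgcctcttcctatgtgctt
The last pair are stretches of the sites upstream of Vmn1r49 and Vmn1r50, which align with each other. Here capitals mark bases that differ between them or face a gap.
Vmn1r49 (chr6:90079211-90079510, minus strand): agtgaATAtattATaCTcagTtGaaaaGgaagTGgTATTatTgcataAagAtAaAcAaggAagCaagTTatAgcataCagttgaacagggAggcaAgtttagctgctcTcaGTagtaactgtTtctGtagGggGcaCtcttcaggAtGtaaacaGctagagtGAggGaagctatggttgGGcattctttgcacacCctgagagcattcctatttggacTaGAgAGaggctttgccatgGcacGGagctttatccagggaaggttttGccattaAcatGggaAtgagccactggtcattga
Vmn1r50 (chr6:90100424-90100723, plus strand): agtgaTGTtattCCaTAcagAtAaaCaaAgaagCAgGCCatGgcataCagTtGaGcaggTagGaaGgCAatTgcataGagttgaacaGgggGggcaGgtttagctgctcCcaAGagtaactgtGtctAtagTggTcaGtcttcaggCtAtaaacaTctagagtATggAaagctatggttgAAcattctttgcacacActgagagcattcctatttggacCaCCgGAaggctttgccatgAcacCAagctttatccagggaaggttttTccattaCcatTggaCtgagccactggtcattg

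Receptor promoters were almost devoid of H3K4me1 sites. A site was present in 24 of 1481 promoters, or 1.62% (95% Wilson interval 1.09 to 2.40%), whereas 63.9% of all protein-coding promoters had one. Since 1 receptor promoter in all held a CpG island, against 54.8% of protein-coding promoters, the nearer comparison is with promoters without an island, of which 28.8% had a site with the receptors included and 33.6% (32.6 to 34.6%) without them. Of protein-coding promoters with an island, 92.7% had a site. The TSS itself lay within a site in 10 receptors (0.675%), against 39.5% of all protein-coding genes and 21.9% of other genes without an island.

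The intervals of the 4 families overlapped when sites of any width were counted. Olfr promoters had a site in 18 of 1135 cases (1.59%, 1.01 to 2.49%) and Vmn1r promoters in 6 of 209 (2.87%, 1.32 to 6.12%). None of 122 Vmn2r promoters had a site, which allows up to 3.05%, and none of 15 Taar promoters, which allows up to 20.4%. The annotated TSS was the first coding base in 14 of 15 Taar, 54 of 209 Vmn1r, 11 of 122 Vmn2r and 69 of 1135 Olfr genes. The windows of these genes are not known to cover the promoter. Where the TSS lay upstream of the start codon, 24 of 1333 receptor promoters (1.80%) had a site. The Vmn1r value rested on a single array, described below, and outside it 1 of 194 Vmn1r promoters (0.515%) had a site. When sites under 500 bp were dropped the Vmn1r share was still 6 of 209, while Olfr fell to 5 of 1135 (0.441%, 0.188 to 1.03%), and these intervals did not overlap. Genes of the same families that the annotation calls pseudogenes or other non-coding types had a promoter site in 4 of 507 cases (0.789%, 0.307 to 2.01%).

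**Figure D1:**
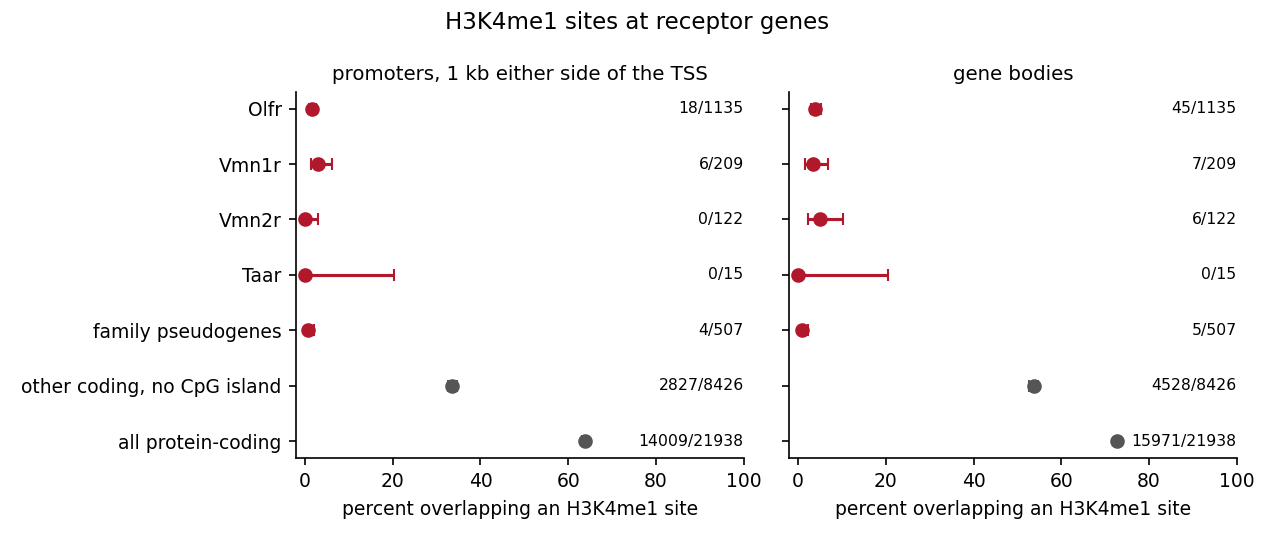
Percent of promoters (left) and gene bodies (right) that overlap an H3K4me1 site, by receptor family and for 2 reference sets, with points for the share, bars for 95% Wilson intervals and counts at the right edge. All receptor sets lie below 5% and the reference sets between 33.6% and 72.8%.

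Sites were rare in gene bodies too. A site lay in the body of 58 of 1481 receptor genes (3.92%, 3.04 to 5.03%), against 72.8% of all protein-coding genes. By family these were 45 Olfr (3.96%), 7 Vmn1r (3.35%) and 6 Vmn2r genes (4.92%), and 0 of 15 Taar genes. Promoter and body together gave 65 receptors (4.39%) with any site. Receptor genes are short, with a median length of 6321 bp against 17425 bp, and body length was therefore held within classes. Among genes of 5 to 10 kb, 31 of 718 receptors (4.32%) had a site in the body, compared with 44.9% of other genes without an island. Among genes of 20 to 50 kb, which were mostly Vmn2r, the shares were 8.08% and 68.6%. None of 174 receptors of up to 2 kb had a body site, against 11.9% of other genes of that length without an island.

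The distance to the nearest site was correspondingly large. The median distance from a receptor TSS to the edge of the nearest site was 128897 bp, compared with 103 bp for all protein-coding genes and 4230 bp for other genes without an island. It was 102967 bp for Olfr, 218295 bp for Vmn1r and 300586 bp for Vmn2r. No site lay within 100 kb of 809 receptors (54.6%), against 9.83% of protein-coding genes and 13.5% of other genes without an island.

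The Taar genes stood at the other end, although none of their promoters or bodies held a site. Their nearest sites were 1100 to 33034 bp away with a median of 11586 bp, and 7 of 15 had a site within 10 kb. The shortest distance belonged to Taar4, a receptor for phenylethylamine, and Taar5, a receptor for trimethylamine, had a site at 3990 bp. The array on chromosome 10 held 9 sites in 0.189 Mb, or 47.6 per Mb, none of them in the promoter or body of a Taar gene. Vnn1 and Stx7, the first genes on either side, both had a promoter site.

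Base composition and repeated sequence differ between receptor promoters and others, and each was held fixed in turn. The promoter windows of receptors had a median GC content of 36.5% and 7 CpGs, against 51.2% and 61 CpGs for all protein-coding genes. In windows of under 35% GC, 0 of 558 receptors and 4 of 161 other promoters without an island (2.48%) had a site. The shares were 0.995% of 603 receptors and 10.9% of others at 35 to 40% GC, 4.31% of 255 and 24.9% at 40 to 45%, and 12.3% of 57 (6.08 to 23.2%) and 38.5% at 45 to 50%. In both sets the share was higher in the classes of higher GC up to 50%, and from 35 to 50% GC the receptors stayed below the others with intervals that did not overlap. The 24 receptors with a site had a median GC content of 43.3%, and those without had 36.4%.

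A read from a repeated sequence cannot be placed, so the share of 75-base words that occur once in the reference chromosomes and scaffolds was counted in each window, 75 bases being the read length. At least 90% of words were unique in 83.2% of receptor promoters, in 1022 of 1135 Olfr promoters but 59.3% of Vmn1r, 63.1% of Vmn2r and 9 of 15 Taar promoters, against 80.9% of other promoters without an island. Where at least 99% of words were unique, 16 of 858 receptor promoters (1.86%, 1.15 to 3.01%) had a site, compared with 42.1% of 5544 others. The low share was thus also found in windows where nearly every read can be placed. Of windows with few unique words, 0 of 52 receptors below 10% and 0 of 39 at 10 to 50% had a site. Of other promoters without an island, 0 of 440 below 10% and 17 of 415 (4.10%, 2.57 to 6.46%) at 10 to 50% had one. Some sites were listed on patch scaffolds, so the authors' reference held such scaffolds, and whether it held alternate loci is not stated. With alternate loci and patch scaffolds in the count, 76.2% of receptor promoters passed 90%, and 1.86% of those had a site.

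**Figure D2:**
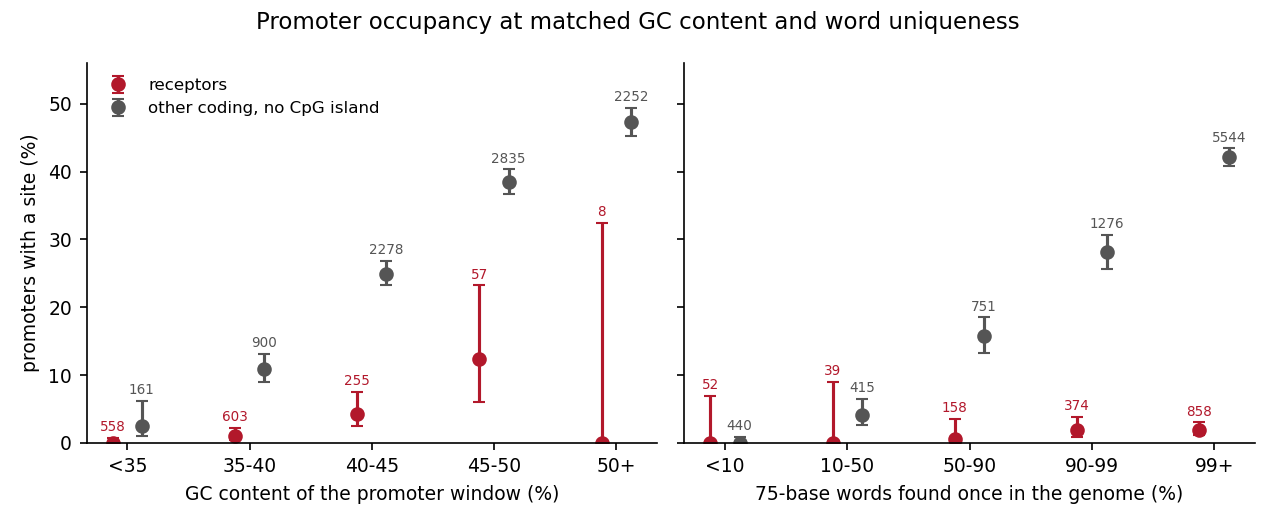
Percent of promoters with an H3K4me1 site in classes of GC content (left) and of the share of 75-base words found once (right), for receptors in red and other protein-coding promoters without a CpG island in grey, with 95% Wilson intervals and the number of promoters above each bar. Receptors reach 12.3% at 45 to 50% GC, where the other promoters reach 38.5%.

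Receptors whose next neighbour within 1 Mb was another receptor were joined to clusters, which gave 71 clusters with a total span of 62.7 Mb. These held 881 sites, or 14.0 per Mb, compared with 62.6 per Mb over chromosomes 1 to 19 and X and 65.8 per Mb in the 200 kb on either side of each cluster. Sites covered 1.22% of the bases inside clusters and 5.83% of the chromosomes. The density was lower inside than in the flanks in 65 of 71 clusters, 32 clusters held no site and 58 had no receptor promoter with a site. These counts include 17 receptors that stood alone, each taken as a cluster, with 0.223 Mb between them. Of these 17, 16 held no site, and none had a promoter site. Among the 29 clusters of 10 or more receptors, with 1346 of the genes, 28 were less dense than their flanks (14.9 against 80.0 per Mb). The exception was an array on chromosome 14 with 38 receptors, which also held 52 other genes and 34.6 sites per Mb, with 10 sites in the 200 kb on its left and 0 on its right. Repeats made up 48.7% of cluster bases and 34.3% of the chromosomes, and per Mb of unmasked sequence the densities were 27.4 and 95.3.

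**Figure D3:**
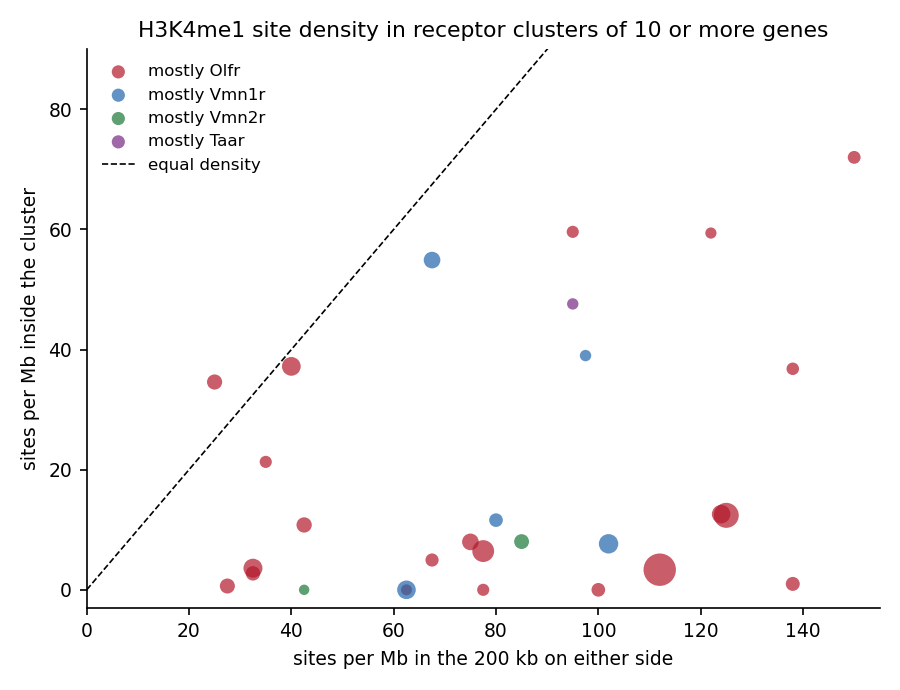
H3K4me1 sites per Mb inside each of 29 clusters of 10 or more receptors (vertical) against sites per Mb in the 200 kb on either side (horizontal), with 1 point per cluster, coloured by the commonest family and larger with more members. Of the points, 28 lie below the dashed line of equal density and 5 lie at 0.

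Clusters of 10 or more receptors ranged from 0 to 72.0 sites per Mb. The longest stretch without a site was the whole of a Vmn1r cluster on chromosome 7 (chr7:20099680-24063554), where 65 Vmn1r genes spread over 3.96 Mb with 0 sites, and where none of 38 other protein-coding genes, mostly predicted genes with Nlrp4e and Nlrp5 among them, had a promoter site. Its flanks held 62.5 sites per Mb. Of its 3963875 bp, 1409981 bp were not repeat-masked. The largest cluster, 227 Olfr genes on chromosome 2 (chr2:85330779-90403897), held 17 sites in 5.07 Mb and 1 promoter with a site, that of Olfr1260, and its longest stretch without a site was 2.60 Mb. A second Olfr cluster on that chromosome (chr2:36373519-37332772), with 28 genes, held 0 sites, while its flanks held 100 per Mb.

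Density changed at the cluster edge. In the 58 edges of the clusters of 10 or more receptors, taken at the outermost receptor genes, the last 50 kb outside held 53.8 sites per Mb and the first 50 kb inside held 12.8. Bins of 50 kb lay between 53.8 and 97.2 per Mb over 500 kb outside and between 10.9 and 27.8 over 500 kb inside. The few receptors with a promoter site were nearer the edges. Of 353 receptors in these clusters within 200 kb of an edge, 17 had a promoter site (4.82%, 3.03 to 7.58%), against 4 of 993 further inside (0.403%, 0.157 to 1.03%). Without the Vmn1r array of chromosome 6 described below, the shares were 12 of 342 (3.51%) and 4 of 989 (0.404%).

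**Figure D4:**
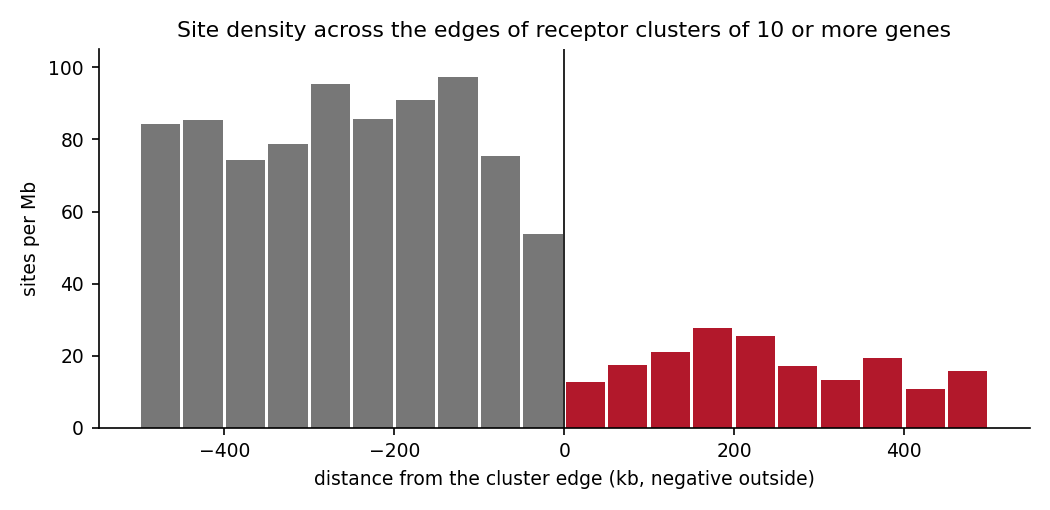
H3K4me1 sites per Mb in bins of 50 kb by distance from the edge of clusters of 10 or more receptors, outside in grey and inside in red, summed over 38 to 58 edges a bin. No bin inside exceeds 27.8 sites per Mb and none outside is under 53.8.

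Protein-coding genes outside the 4 name groups had sites far more often than the receptors around them. Of 384 such genes inside the clusters, among which V1ra8, V1rd19 and OR5BS1P are receptors by symbol and had no promoter site, 174 (45.3%, 40.4 to 50.3%) had a promoter site. In the clusters of 10 or more receptors the share was 108 of 122 (88.5%) with a CpG island, against 92.7% of all protein-coding promoters with one. Without an island it was 51 of 230 (22.2%, 17.3 to 28.0%), against 33.6% (32.6 to 34.6%) of promoters without an island outside the 4 name groups. More than 200 kb from an edge it was 140 of 303 (46.2%). The first gene on either side of a cluster had a promoter site in 84 of 137 cases (61.3%).

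The guests were of several kinds. On chromosome 13 the cluster of 36 Vmn1r and 13 Olfr genes encloses part of the histone gene array, and 28 of its 39 other genes had a promoter site, among them Hist1h4j, Hist1h1b and Trim27, while none of its 49 receptors had one. On chromosome 11 the genes Wnt3a and Wnt9a, which encode secreted signals, and Arf1, a trafficking GTPase, had sites within a cluster of 23 Olfr genes. The cluster of class I olfactory receptors on chromosome 7 (chr7:102476579-105369355), with 129 Olfr genes, encloses the beta-globin genes and the Trim genes. There 8 of 27 other genes had a promoter site, namely Hbb-bh1, an embryonic globin, the ubiquitin ligase genes Trim6, Trim12a, Trim12c, Trim21, Trim34a and Trim68, and Usp17la. The adult globins Hbb-bt and Hbb-bs and Trim30a had none, with their nearest sites at 29069, 14969 and 36705 bp. Only 62.6% and 68.1% of the words were unique in the promoters of Hbb-bt and Hbb-bs.

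Of the 816 sites in the spans of the clusters of 10 or more receptors, 21 (2.57%) lay in receptor promoters and 51 (6.25%) in receptor gene bodies. Other protein-coding genes took 377 (46.2%), non-coding genes 42 (5.15%) and the space between genes 325 (39.8%). The 25 distinct sites in receptor promoters had a median width of 439 bp, and 8 of them were under 300 bp. In the same clusters the median was 493 bp in receptor bodies and 477 bp between genes, compared with 603 bp over all sites on the chromosomes.

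The 24 receptors with a promoter site were spread over 13 clusters and shared 23 start sites, since Vmn1r42 and Vmn1r43 are annotated from the same TSS. The site covered the TSS in 10 receptors, lay only upstream in 7, only downstream in 6, and on both sides in Olfr12. Between 11 and 1754 bp of the window were covered, with a median of 375 bp. Just inside the window limit stood Olfr455 with 11 bp and Olfr654 with 46 bp, and just outside it stood Taar4 with its site at 1100 bp. The nearest protein-coding gene outside the 4 name groups had a promoter site for 13 receptors and none for 11, at distances from 83 to 858323 bp. These are counts of receptors and not of distinct genes, since neighbouring receptors often shared their nearest gene. Txnrd3 was counted for Vmn1r40, Vmn1r42 and Vmn1r43, and Flt4 for Olfr1381 and Olfr1388. Rrm1 was counted for Olfr543 and Olfr545, Mettl7b for Olfr768 and Olfr769, and V1ra8 for Vmn1r49 and Vmn1r50. Of all protein-coding promoters outside the 4 name groups, 68.4% had a site. In no case but that of Vmn1r4 did a promoter site also reach the TSS of a protein-coding gene of another family.

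**Figure D5:**
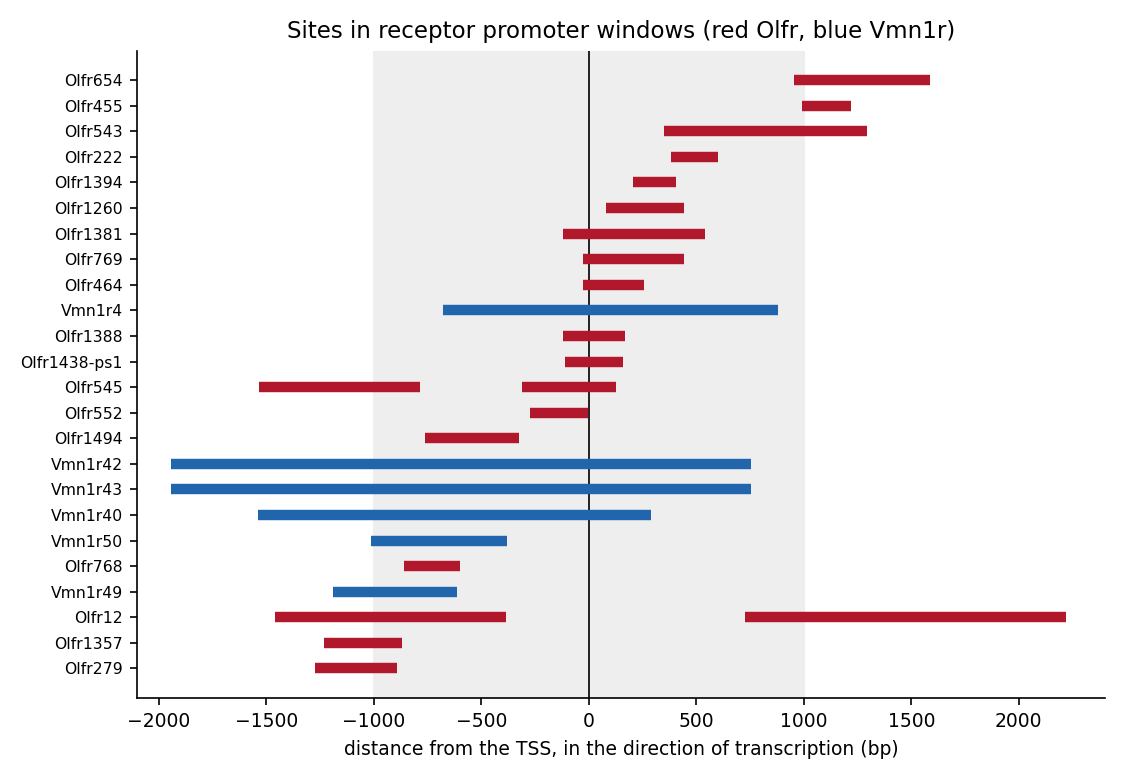
Position of each H3K4me1 site that reaches the promoter window of a receptor, in bp from the TSS in the direction of transcription, with Olfr in red, Vmn1r in blue and the window of 1 kb either side in grey. The sites of 10 receptors cover the TSS at 0, and the widest, 2700 bp, is shared by Vmn1r42 and Vmn1r43.

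Vmn1r4 on chromosome 6 differed in kind from the other exceptions. Its site (chr6:56923337-56924895) spanned 1559 bp from -678 to 880 bp, with 91 CpGs and 53.9% GC, and covered the start sites of both Vmn1r4 and Nt5c3. Its annotated start codon lies 32498 bp from that TSS. The signal of the shared promoter cannot be assigned to either gene from positions.

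The array of 15 Vmn1r genes from Vmn1r40 to Vmn1r54 on chromosome 6 (chr6:89707540-90271213) held the densest group of exceptions, 5 promoters (33.3%, 15.2 to 58.3%) and 6 gene bodies with a site. It held 22 sites, or 39.0 per Mb, against 97.5 in its flanks. Vmn1r42 and Vmn1r43 shared a site of 2700 bp (chr6:89875660-89878359) that covered 1754 bp of their window, the most of any receptor. Vmn1r40, the first gene of the array, had 1292 bp covered by a site of 1831 bp over its TSS, and lay 63552 bp from Txnrd3, a thioredoxin reductase gene with a promoter site. Vmn1r49 had 387 bp covered at -1190 to -614 bp and Vmn1r50 622 bp at -1013 to -379 bp. Their nearest gene outside the 4 name groups was V1ra8, which is itself a vomeronasal receptor by its symbol and had no site.

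Some sites of this array aligned with each other. Among the 86 distinct sites in receptor promoters or bodies, all 3655 pairs were aligned, and 10 pairs had at least 150 aligned columns with 70% or more identity. The sites of Vmn1r49 and Vmn1r50 aligned over 410 columns with 79.5% identity, as the stretches printed above show. That of Vmn1r40 aligned with Vmn1r50 over 626 columns at 80.4% and with Vmn1r49 over 385 columns at 78.7%. It also aligned with sites outside the array, over 351 columns at 78.9% with a site of Olfr56 on chromosome 11, and over 153 columns at 72.5% with that of Olfr1494 on chromosome 19. Repeat-masked bases made up 69.0% and 100% of these sites. The site of 2700 bp at Vmn1r42 and Vmn1r43 was in none of the 10 pairs. Repeat-masked bases made up 10.4% of the Vmn1r50 site and 4.51% of the Vmn1r49 site. The Vmn1r50 site was then searched from 3000 bases before to 1000 bases after each Vmn1r TSS. Of the other 14 genes of the array, 5 held a matching stretch, and of 194 Vmn1r genes of other clusters 0 did. A site lay on the stretch in 3 of these 5, Vmn1r40, Vmn1r44 and Vmn1r49. No site lay on the stretch at Vmn1r41 and Vmn1r46. At Vmn1r41, 627 columns aligned at 80.7% from -986 to -377 bp. All words of its promoter were unique, and the nearest site was 32935 bp away. At Vmn1r46, 327 columns matched from -3000 bp, where the search began, so the match may run on further.

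The Olfr exceptions formed small groups as well. On chromosome 11, 3 of 19 genes of the cluster chr11:48978889-49565859 had a promoter site. That of Olfr1381 was 664 bp wide and covered the TSS, that of Olfr1388 was 290 bp wide and covered it too, and that of Olfr1394 was 200 bp wide and began 206 bp downstream. Their neighbours Flt4, the receptor of lymphatic growth factors, and Btnl9 had promoter sites. At the start of the class I cluster, next to Rrm1, which encodes the large subunit of ribonucleotide reductase, stood Olfr543 with 652 bp of the window covered and Olfr545 with 653 bp in 2 sites. Olfr552 followed, 32284 bp from Trim21. Olfr544, a receptor for azelaic acid between them, had no promoter site but a site of 1444 bp in its body.

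Olfr768 and Olfr769 are neighbours on chromosome 10, and their sites were 264 bp upstream and 475 bp over the TSS, 138387 and 156873 bp from Mettl7b, which had none. On chromosome 19, Olfr1438-ps1 had a site of 271 bp over the TSS, and Olfr1494 a site of 439 bp at -761 to -323 bp that was entirely repeat sequence, the farthest from any other protein-coding gene (858323 bp from Tle4). Olfr12 on chromosome 1 had 893 bp covered by 2 sites, the most among Olfr genes, and lay 24197 bp from Cops9, a subunit gene of the COP9 signalosome. The remaining Olfr exceptions were Olfr1357 (132 bp covered), Olfr222 (219 bp), Olfr464 (287 bp), Olfr279 (110 bp) and Olfr1260 (363 bp), beside Olfr455 and Olfr654. Olfr1260 was the exception with the least unique promoter, 76.3% of words, in the reference chromosomes. With alternate loci and patches counted, 33.2% of the promoter words of Olfr464 and 1.66% of those of Vmn1r50 occurred once.

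Receptors known by a ligand or by their use in the field followed the rest. Of 15 that were measured, Vmn1r50 had a promoter site. Olfr16, a receptor for lyral, had its nearest site at 10109 bp, Olfr558 and Olfr78, both receptors for short-chain fatty acids, at 14660 and 71916 bp, Olfr73, a receptor for eugenol, at 120469 bp, Olfr17, long used as the P2 receptor, at 277093 bp and Olfr2, the octanal receptor I7, at 364241 bp. Vmn2r26 stood at 231697 bp and Vmn2r116 at 149448 bp. Their promoter words were 73.2% and 85.1% unique, and those of the Olfr genes named here at least 96.0%.

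The 41 receptors with a site in the body only were led by Olfr56 with 2645 bp in 4 sites, but its annotated model runs over 156499 bp across the Tgtp1 locus, an interferon-induced GTPase gene with a promoter site of its own. Olfr94 followed with a site of 2032 bp, 55.0% GC and 95 CpGs, then Olfr544 (1444 bp), Olfr13 (1400 bp), Olfr70 (1342 bp), Vmn2r1 (1289 bp), Olfr460 (1270 bp), Vmn2r78 (1061 bp), Olfr876 (868 bp) and Olfr95 (813 bp). Olfr94 and Olfr95 are neighbours near Ubd, a ubiquitin-like modifier gene with a promoter site. All words of their sites occurred once in the reference chromosomes and 0% once when alternate loci and patches were counted. With these scaffolds 8.02% of the words of the Vmn1r50 site, 28.6% of the Olfr464 site and 0% of the Vmn1r54 site occurred once. Whether reads at these genes were split between copies was not tested.

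Within bodies, with all families pooled, coding sequence made up a larger part of the bases under sites than of all body bases. Of 81 pairs of a gene and a site in its body, 22 touched a coding exon. A further 35 touched an untranslated exon but no coding base, some of them with intron bases as well, and 24 lay in introns only. Coding sequence made up 12.3% of receptor body bases and 21.7% of the body bases under sites. For Olfr the pairs were 19, 27 and 12, for Vmn1r 1, 7 and 7, and for Vmn2r 2, 1 and 5. Among the Vmn1r pairs only that of Vmn1r45 held coding bases, so the pooled share does not describe this family. In 2 pairs of neighbouring genes the sites lay on nearly the same coding sequence, Olfr1174-ps and Olfr1175-ps with 98.7% identity over 372 columns and Olfr1291-ps1 and Olfr1293-ps with 96.7% over 392. In the first pair 74.4% and 72.8% of the words of the site were unique. Over all 86 sites, 6 had under 90% unique words, and 14 did when alternate loci and patches were counted.

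Short motifs were counted as a description of the sequences. In the 300 bases upstream of the TSS, on both strands, TATAAA occurred in 34.6% of receptor promoters, 13.7% of all protein-coding promoters and 19.3% of other promoters without an island, and TAATTA, the core that homeodomain factors such as Lhx2 and Emx2 bind, in 23.9%, 6.03% and 7.43%. Both words hold only A and T, and the median GC content of the promoter windows was 36.5%, 51.2% and 46.4% in these sets. Motif shares at matched GC content were not counted. CCCNNGGG, the core of the Ebf site, occurred in 13.6% of receptor promoters, 15.4% of all protein-coding promoters and 928 of 8426 other promoters without an island, so receptors lay below all promoters and above those without an island, with 26.2% of Vmn2r and 4.31% of Vmn1r promoters. TGANTCA occurred in 12.2%, 7.16% and 10.2%. Receptors with a promoter site held TAATTA in 7 of 24 and CCCNNGGG in 7 of 24 cases, and those without in 23.8% and 13.4%. In the middle 200 bases of sites, TGANTCA occurred in 6 of 25 sites of receptor promoters, in 15 of 86 sites of receptor promoters or bodies (17.4%) and in 12.7% of all sites. With so few sites these shares are counts and carry no test.

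The genes that act beside the receptors were counted too. Among genes of odour signal transduction 7 of 13 had a promoter site (53.8%, 29.1 to 76.8%, against 63.9% of all protein-coding promoters), including Adcy3, the adenylyl cyclase, Gnal, its stimulatory G protein subunit, Ano2, a chloride channel, and Omp, the olfactory marker protein. The cyclic nucleotide-gated channel genes Cnga2, Cnga4 and Cngb1 had none, nor had Trpc2, the vomeronasal channel, with nearest sites from 3752 to 28987 bp. In this list every gene with a promoter site except Ano2 held a CpG island, and no gene without a site held one. Of the receptor transport genes, Rtp2 and Reep1 had a site and Rtp1 had none. All 11 genes listed for receptor choice and chromatin had a promoter site, among them Lhx2, Ldb1, Emx2, Ebf1, Lbr, Cbx5 and Kdm1a, and all 11 hold a CpG island, a kind of promoter of which 92.7% had a site. These lists are small and many of their genes act in other tissues.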

How the data were processed

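Reads of the H3K4me1 libraries had been cut with Trim Galore by the authors, mapped with BWA to mm10, and filtered with samtools. Picard merged the replicates and Macs called broad peaks, with versions and thresholds not given in the sources used here. The deposited values are positions in bases, a start counted from 0 and an end, of 160144 peaks, 160108 of them on chromosomes 1 to 19 and X. They hold no signal and no depth. How peaks of different conditions were combined is not stated, so a peak of 1 time point cannot be told apart from a constant peak.

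Coordinates printed here are counted from 1 on GRCm38.p6, with sequence from the RefSeq assembly and genes from GENCODE M21 (the paper used M25). Python 3.11.15 (pandas 2.3.3, numpy 2.4.6, numba 0.67.0, scipy 1.17.1) gave overlaps, distances and word counts, which were checked on simulated data. Matplotlib 3.10.9 drew the figures. CpG islands were called on repeat-masked sequence (over 200 bp, at least 50% GC, observed to expected CpG over 0.6). Local alignments scored 1 per match, -1 per mismatch and -2 per gap. No test was run, since peaks carry no replicates.

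The receptors, gene lists and comparisons were chosen with earlier results of these data known. The rule named all 24 receptors with a promoter site, the 10 with most body bases covered among the others, receptors known by ligand (Olfr151 is not protein-coding in this annotation), the nearest gene of another family and fixed lists. Vmn1r41, Vmn1r44, Vmn1r46, Olfr303, Olfr677, the -ps pairs, V1ra8 and the genes named on chromosomes 11 and 13, with the alignments and motif counts, were chosen after their values were seen.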

Additional observations from a re-analysis of the deposited data

How the results depend on the processing

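Of 63 alternatives over 8 shares and densities, 53 stayed within the Wilson interval of the value reported or, for densities, within 1.5 times of it, and 10 moved. The 53 include Vmn2r and Taar shares of 0, which settings that only narrow the windows, sites or genes could not change. The Taar share rose to 6.67% (1 of 15) with 2 kb and still counted as unmoved, because its interval reaches 20.4%. The share of receptor promoters with a site was 1.22% with 500 bp and 2.23% with 2 kb on either side of the TSS, and 2.30% over any annotated TSS. It moved to 0.675% when the TSS itself had to lie in a site and to 0.743% when sites under 500 bp were dropped, and for Olfr to 0.529% and 0.441%. The share of gene bodies moved to 2.09% without sites under 500 bp. The density inside clusters moved from 14.0 to 7.52 sites per Mb when clusters ended at gaps of 200 kb, to 7.81 without sites under 500 bp and to 27.4 per unmasked Mb, and was 1.22% as the share of bases covered, a different unit. The share of other genes inside clusters with a promoter site moved to 33.8% with gaps of 200 kb, which leaves 130 of 384 genes. Dropping narrow sites leaves fewer sites by construction. For the other settings the cause was not tested. The 5 alternatives with alternate loci and patches in the word count were added after the data were seen.

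No paired analysis was possible because the peak set merges all libraries and carries no replicate, and for the same reason no library was left out. Depth, replicate error and time cannot be read from this table, and a missing site says only that no peak was listed there. In promoter windows of under 10% unique words no receptor and no other promoter without an island had a site.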

Other observations

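Promoters with a site were counted in the same way in other gene families, several of which lie in tandem arrays. For beta-defensins (Defb), antimicrobial peptides, it was 2 of 42, for bitter taste receptors (Tas2r) 1 of 35, for sweet and umami taste receptors (Tas1r) 1 of 3, for formyl peptide receptors (Fpr), some of which are vomeronasal, 0 of 7, for the Ms4a genes, some of which are chemoreceptors of a further class of olfactory neuron, 3 of 19, and for clustered protocadherins 9 of 57. Zinc finger genes with Zfp symbols, which also lie in arrays and in part inside receptor clusters, had a site in 326 of 394 promoters (82.7%). These families differ in CpG islands, which lay in 239 of 394 Zfp promoters (60.7%), 20 of 57 protocadherin and 1 of 3 Tas1r promoters. No Defb, Tas2r, Fpr or Ms4a promoter held an island. The Wilson intervals for Defb, Tas2r and Fpr overlapped that of the receptors, and no test was run.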
